A study of Mus musculus with 9 samples.

Results

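Txnip and 6 genes tied to the carbohydrate response were followed across islet libraries of mice on diets of different fat content. The genes were Txnip, Arrdc4, Mlxipl, Mlx, Mlxip, Pklr and Txn1. They were picked by symbol, and all 7 were found among the 56941 Ensembl identifiers counted, and all 7 had enough counts to be tested. Islets are the hormone-secreting cell clusters of the pancreas, and here they came from wild-type (WT) male C57Bl/6J mice that were 15 weeks old when the diets began and ate them for 9 months. Fat made up 10% of the low fat diet (LFD), which is the control, 60% of the high fat diet (HFD) and 89.9% of the ketogenic diet (KD). There were 3 LFD, 2 HFD and 4 KD libraries, which allows a comparison of islet transcripts between the ketogenic, high fat and low fat diets. The labels call the libraries replicates without saying whether each came from a separate mouse, so p-values measure only the spread between these libraries, which may be technical.

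The genes form a known circuit. When glucose enters a cell, the transcription factors ChREBP (Mlxipl) and MondoA (Mlxip) move to the nucleus with their shared partner Mlx. As dimers with Mlx they bind carbohydrate response elements, which are pairs of E-box-like sequences held at a fixed spacing. Txnip, Arrdc4 and Pklr are among their best known targets. Txnip and Arrdc4 encode alpha-arrestins that restrain glucose uptake, and the Txnip protein also binds thioredoxin, the redox protein encoded by Txn1. Pklr encodes the pyruvate kinase of liver and red cells, which closes glycolysis. In beta cells Txnip is known as one of the transcripts most responsive to glucose, and raised Txnip promotes beta cell death.

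Start-site sequences are shown first because these factors are known to act through elements near gene starts. They are the RefSeq sequences of the GRCm38.p6 build for the 250 bases before an annotated start, and the deposited counts carry no coordinates. Capitals mark matches to 1 of 3 motifs, each searched on both strands: CACGTG (the E-box), a direct pair (CACGNG, any 5 bases, CACGNG) and an inverted pair (CACGNG, any 5 bases, CNCGTG). A pair in which either block reads CACGTG also holds the E-box. The plus-strand window of Txnip lies at chr3:96557707-96557956, that of the second Pklr start on the plus strand at chr3:89136373-89136622, and that of Arrdc4 on the minus strand at chr7:68749239-68749488.
Txnip: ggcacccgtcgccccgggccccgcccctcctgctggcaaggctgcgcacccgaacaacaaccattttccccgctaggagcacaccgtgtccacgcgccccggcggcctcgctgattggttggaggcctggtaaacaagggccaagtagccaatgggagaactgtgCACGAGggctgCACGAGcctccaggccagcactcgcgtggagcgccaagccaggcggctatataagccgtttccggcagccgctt
Pklr, second start: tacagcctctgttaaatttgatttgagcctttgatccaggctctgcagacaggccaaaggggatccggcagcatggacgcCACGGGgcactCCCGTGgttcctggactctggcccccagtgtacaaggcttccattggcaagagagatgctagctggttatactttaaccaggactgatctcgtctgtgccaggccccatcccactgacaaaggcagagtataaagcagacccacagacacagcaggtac
Arrdc4: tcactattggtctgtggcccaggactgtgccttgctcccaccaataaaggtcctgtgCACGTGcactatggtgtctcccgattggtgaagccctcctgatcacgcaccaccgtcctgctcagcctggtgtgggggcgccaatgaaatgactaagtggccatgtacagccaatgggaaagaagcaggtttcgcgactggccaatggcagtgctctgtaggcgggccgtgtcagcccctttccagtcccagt

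The Txnip window held a direct pair, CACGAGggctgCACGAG, whose first base lay at -85 from the start. The window of the second Pklr start held an inverted pair, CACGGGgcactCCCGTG, with its first base at -170. Among the 32851 start-site windows of the mouse table, which reach 50 bases past the start, 24 held either pair, or 0.0731%. No pair was found in the window of Arrdc4, whose E-box began at -193. An E-box was also present in the windows of Mlx, at -40, and of the first Mlxipl start, at -98. Across all windows 7.15% held an E-box. The windows of Mlxip, Txn1, the first Pklr start and the second Mlxipl start held none of the 3 motifs. These matches describe letters in a window and do not show binding.

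**Figure D1:**
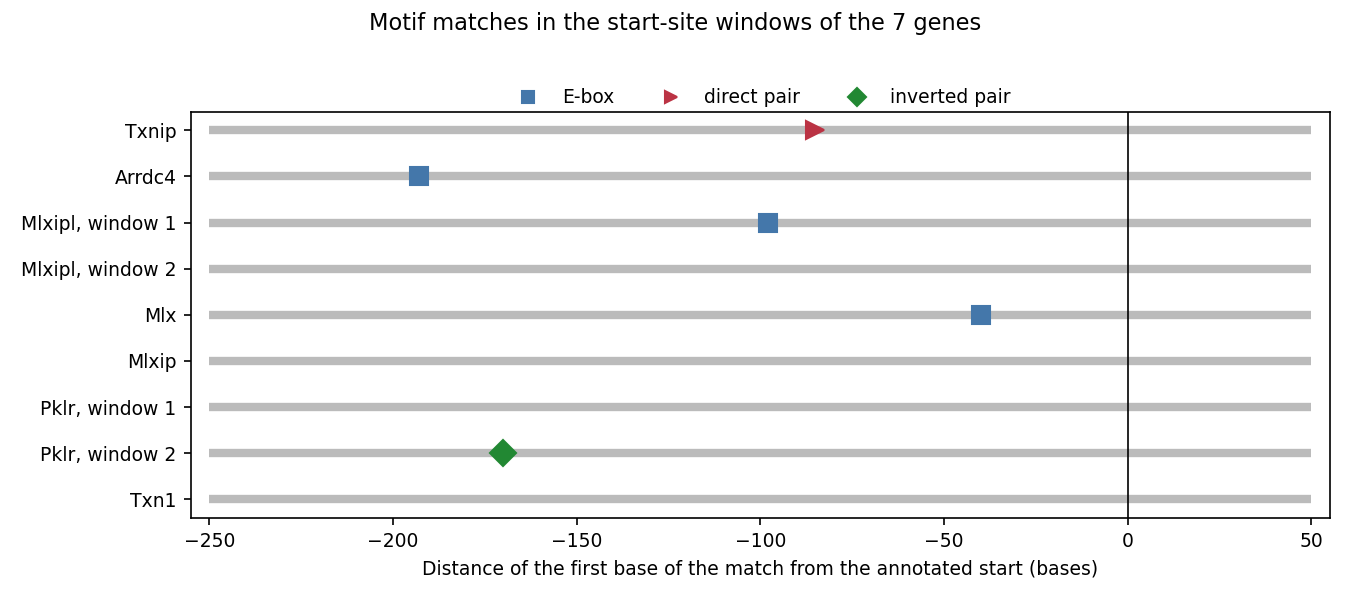
Matches to the 3 motifs in the start-site windows of the 7 genes, with the distance of the first base of a match from the annotated start in bases on the x axis and 1 grey bar per window. Txnip and Pklr each hold 1 pair, at -85 and -170, and Arrdc4, Mlxipl and Mlx each hold 1 E-box.

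Levels are given as CPM, counts brought to a common library size after scaling by the trimmed mean of M-values (TMM). Library totals ran from 15513502 to 26588390 counts. Beta cell markers took 5.719% to 9.485% of the counts of a library on LFD, 11.63% to 12.91% on HFD and 1.68% to 12.84% on KD. Digestive enzyme and other acinar markers took 13.08% to 29.98% on LFD, 9.754% to 15.97% on HFD and 17.15% to 51.83% on KD. Their summed levels were 104400 to 285100 CPM on LFD, 64980 to 130300 on HFD and 146800 to 957600 on KD. Summed levels of the 12 lymphocyte markers were 25 to 140 CPM on LFD, 4.50 to 5.82 on HFD and 1.96 to 3.89 on KD. In whole-islet RNA, fewer cells of a type and less RNA per cell cannot be told apart.

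Per length of the longest coding transcript, Txnip stood far above the rest. Its LFD level was 239 ± 28.9 CPM per kilobase (SD, n = 3). Mlxipl followed at 27.5 ± 5.29 and Txn1 at 18.2 ± 6.15, whose spreads overlapped. Mlx at 9.12 ± 1.08 and Mlxip at 8.55 ± 0.727 did not differ beyond their spread. Arrdc4 stood at 5.04 ± 0.606, and Pklr was lowest at 2.80 ± 0.938. On KD the same scale gave 131 ± 24.2 for Txnip, 20.2 ± 0.579 for Mlxipl and 3.04 ± 0.343 for Arrdc4 (SD, n = 4).

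**Figure D2:**
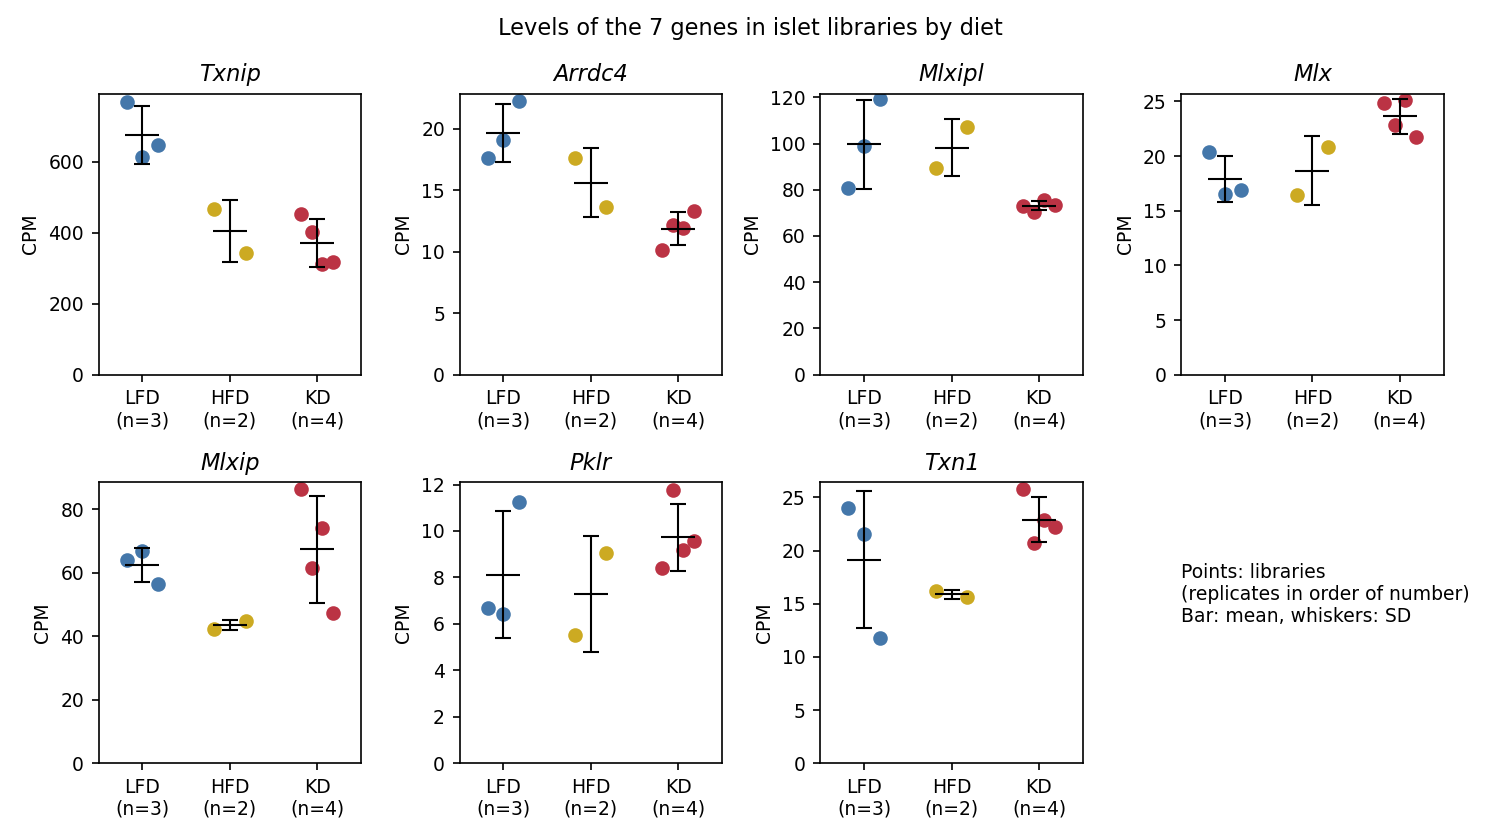
CPM of each of the 7 genes (y axis, from 0) by diet, with 1 point per library, the mean as a bar and the SD as whiskers. Txnip and Arrdc4 are lower in all KD libraries than in any LFD library, Mlxipl sits between 70.4 and 75.5 CPM in the 4 KD libraries, and Pklr and Txn1 ranges overlap between KD and LFD.

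Txnip (ENSMUSG00000038393) and Arrdc4 (ENSMUSG00000042659), the paired alpha-arrestin targets, were both lower on KD than on LFD. Txnip measured 768, 613 and 647 CPM in LFD replicates 1 to 3, 467 and 344 CPM in HFD replicates 1 and 2, and 452, 402, 312 and 316 CPM in KD replicates 1 to 4. Every LFD library lay above every HFD and KD library, and the HFD and KD ranges overlapped. Mean Txnip was thus 676 ± 81.8 CPM for LFD (SD, n = 3), then 405 ± 87.3 for HFD (SD, n = 2), then 371 ± 68.3 for KD (SD, n = 4). The log2 fold change of KD against LFD, from an edgeR model over all genes, was -0.87 (SE 0.19), so the KD level was 0.548 times the LFD level. That decrease was known when the genes were picked, so it is a description without a test.

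Arrdc4 measured 17.7, 19.1 and 22.3 CPM on LFD, 17.6 and 13.7 CPM on HFD, and 10.1, 12.2, 11.9 and 13.3 CPM on KD, from 130 to 475 counts per library. All KD libraries lay below all others, and HFD replicate 1 came just under the lowest LFD library. Arrdc4 had a KD against LFD log2 fold change of -0.72 (SE 0.16), a level 0.605 times that on LFD. Txnip outnumbered Arrdc4 by a CPM ratio of 34.9 ± 7.63 for LFD (SD, n = 3), then 25.8 ± 0.973 for HFD (SD, n = 2), then 31.9 ± 9.41 for KD (SD, n = 4). That ratio does not depend on library scaling, and its LFD and KD ranges, 29.1 to 43.5 and 23.7 to 44.7, overlapped.

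Other cell types moved with the diets, as the marker lists show. All 12 lymphocyte markers were lower in every KD and HFD library than in any LFD library, 11 of them passed the test as lower on KD, and each had counts on every diet. Within LFD, lymphocyte markers summed to 66.4, 140 and 25 CPM in replicates 1 to 3. In the same order Txnip measured 768, 613 and 647 CPM and Arrdc4 17.7, 19.1 and 22.3 CPM. Summed levels of 6 duct markers were 367 to 420 CPM on LFD, 250 to 258 on HFD and 207 to 247 on KD, and 3 of the 6 passed the test as lower on KD. The part of these cell types in the Txnip and Arrdc4 values was not tested, and 2 covariate fits are given as a description. With the acinar score, the mean log2 CPM of the acinar markers, as a covariate, the KD against LFD log2 fold change was -1.09 for Txnip and -0.58 for Arrdc4. With a lymphocyte score made in the same way it was -0.90 (SE 0.55) and -1.12 (SE 0.42). That score was 0.54 to 3.18 on LFD, -1.53 to -1.11 on HFD and -2.45 to -1.86 on KD. Since it did not overlap between LFD and the other diets, a fit with it cannot tell lymphocyte content from diet. For KD against LFD 0 of all genes passed in that fit, so nothing is read from a call lost there.

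None of the 3 factor genes was called for KD against LFD, beside 4.12% of all genes, and nothing is read from that. Mlxipl (ENSMUSG00000005373), which encodes ChREBP, measured 80.9, 98.8 and 119 CPM on LFD, 89.4 and 107 CPM on HFD, and 73.1, 70.4, 75.5 and 73.6 CPM on KD. The KD libraries lay below all others and within a narrow band. Summed beta cell markers of the same 4 libraries ran from 31050 to 109900 CPM, and the part of cell content in the Mlxipl values was not tested. For KD against LFD the log2 fold change of Mlxipl was -0.45 (SE 0.14). It was -0.30 without LFD replicate 3, the highest library, and -0.31 with the acinar score as a covariate. Mlxipl has more than 1 annotated start, and counts per gene do not separate its isoforms.

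Mlx (ENSMUSG00000017801), the obligate partner, measured 20.4, 16.5 and 16.9 CPM on LFD, 16.4 and 20.9 CPM on HFD, and 24.8, 22.8, 25.1 and 21.8 CPM on KD. All KD libraries were above all others, and the log2 fold change of KD against LFD was 0.40 (SE 0.14). Mlxip (ENSMUSG00000038342), which encodes MondoA, measured 63.9, 66.9 and 56.6 CPM on LFD, 42.4 and 44.7 CPM on HFD, and 86.4, 61.6, 74.1 and 47.4 CPM on KD. Its 2 HFD libraries were the lowest of all 9. In the KD libraries Mlxip followed the order of the acinar markers, which summed to 957600, 445300, 768100 and 146800 CPM in replicates 1 to 4. Within LFD and HFD it did not follow that order. There the acinar markers summed to 285100, 174400 and 104400 CPM in LFD replicates 1 to 3, and to 130300 and 64980 CPM in HFD replicates 1 and 2. The Mlxip log2 fold change of KD against LFD was 0.11 (SE 0.18), and it was -0.28 with the acinar score as a covariate.

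The ratio of Mlxipl to Mlxip CPM was 1.62 ± 0.438 for LFD (SD, n = 3), then 2.25 ± 0.202 for HFD (SD, n = 2), then 1.14 ± 0.301 for KD (SD, n = 4). KD ratios ran from 0.846 in replicate 1, which has the highest acinar level, to 1.55 in replicate 4, and the HFD ratios were 2.11 and 2.39. KD and HFD did not overlap in this ratio, and it rests partly on Mlxip, whose KD order followed the acinar markers.

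Pklr and Txn1 showed no separation between KD and LFD. Pklr (ENSMUSG00000041237) measured 6.68, 6.41 and 11.3 CPM on LFD, 5.50 and 9.05 CPM on HFD, and 8.40, 11.8, 9.17 and 9.59 CPM on KD, from 103 to 264 counts per library. The ranges overlapped in every comparison. For KD against LFD its log2 fold change was 0.26 (SE 0.25, 95% interval -0.29 to 0.82). That of Txnip, the other gene with a paired element in its window, was -0.87 (SE 0.19). Leaving out 1 of LFD replicates 1 to 3 in turn gave 0.15, 0.12 and 0.58 for Pklr, and leaving out KD replicate 2 gave 0.16. Pklr shares 711 exonic bases with Hcn3 on the opposite strand, which had 68 to 202 counts per library. Txn1 (ENSMUSG00000028367) measured 24.0, 21.6 and 11.8 CPM on LFD, 16.2 and 15.6 CPM on HFD, and 25.7, 20.7, 22.9 and 22.2 CPM on KD. LFD replicate 3 held the lowest Txn1 level of all libraries, and the KD against LFD log2 fold change was 0.26 (SE 0.21, 95% interval -0.21 to 0.72). It was 0.00 without that library, 0.44 without LFD replicate 1, 0.04 with the acinar score and 1.44 with the lymphocyte score. The processed pseudogene Txn-ps1 had at most 1 count in any library.

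As a ratio to its binding partner, Txnip was lowest on KD, and that ratio rests partly on Txn1. The ratio of Txnip to Txn1 CPM was 32.0, 28.4 and 54.8 in LFD replicates 1 to 3, 28.9 and 22.04 in HFD replicates 1 and 2, and 17.6, 19.4, 13.6 and 14.2 in KD replicates 1 to 4. Every KD library lay below every other library, and HFD and LFD overlapped. Between KD and HFD the Txnip ranges overlapped (log2 fold change -0.13), while Txn1 differed by 0.53, or 0.14 with the acinar score. LFD replicate 3, with the highest ratio, held the lowest Txn1 at 11.8 CPM. The mean ratio was 38.4 ± 14.3 for LFD (SD, n = 3), then 25.5 ± 4.86 for HFD (SD, n = 2), then 16.2 ± 2.75 for KD (SD, n = 4).

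P-values came from edgeR (quasi-likelihood, adjusted by Benjamini-Hochberg over the 18548 genes tested). At an adjusted threshold of 0.05, 2 of the 7 genes, Txnip and Arrdc4, were called for KD against LFD, both lower. Of all genes, 4.12% were called in that comparison, 0.981% as higher and 3.14% as lower. Since the genes were picked with this contrast known, nothing is read from that count. It fell to 0 when either of LFD replicates 1 and 2 or either of KD replicates 2 and 3 was left out and with the lymphocyte score, and to 1 without LFD replicate 3 or KD replicate 1 and with the acinar score. The KD and LFD libraries did not overlap for 4 of the 7 (3 lower, 1 higher), beside 19.7% of all genes (10.1% lower, 9.69% higher). The median log2 fold change was 0.11 over the 7 and -0.02 over all genes tested.

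**Figure D3:**
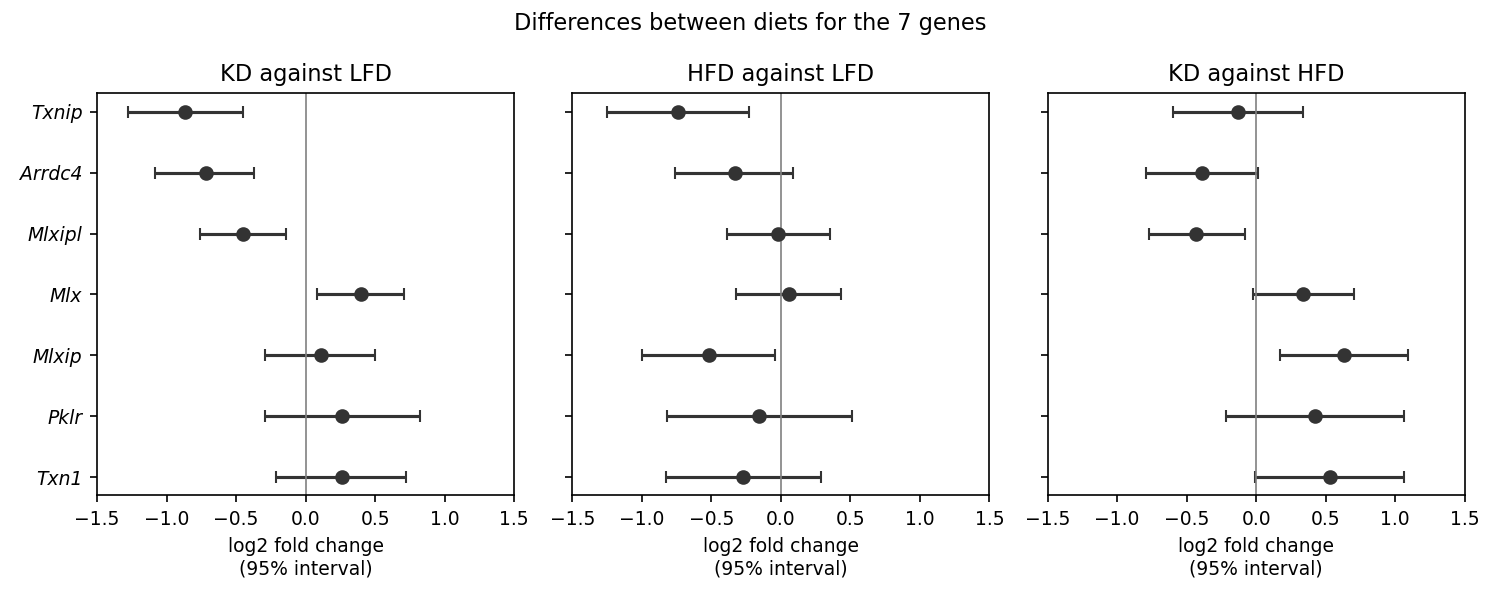
Log2 fold changes (x axis) of the 7 genes in the 3 comparisons, with unadjusted 95% intervals from the edgeR model. On KD against LFD Txnip is at -0.87, Arrdc4 at -0.72, Mlxipl at -0.45 and Mlx at 0.40. The genes were picked with that comparison known, so its intervals describe spread and are no test.

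HFD against LFD shares its LFD libraries with the comparison above. None of the 7 genes passed in edgeR, where 0 of all genes passed (0%) and 9.99% had an unadjusted p below 0.05, Txnip and Mlxip among the latter. DESeq2 called Txnip, at an adjusted p that rounds to 0.05, beside 1.44% of all genes. The log2 fold change was -0.74 for Txnip (SE 0.23, edgeR adjusted p 0.366), -0.33 for Arrdc4 (SE 0.19, edgeR adjusted p 0.575) and -0.52 for Mlxip (SE 0.22, edgeR adjusted p 0.476). Leaving out an HFD library moved Arrdc4 to -0.53 (without replicate 1) or -0.16 (without replicate 2), and the acinar score moved Mlxip to -0.30. Mlxipl was at -0.02 with an interval of -0.39 to 0.35, and Mlx at 0.06 with an interval of -0.32 to 0.43. Pklr was at -0.16 (SE 0.30) and Txn1 at -0.27 (SE 0.25). Both HFD libraries lay below the 3 LFD libraries for Txnip, Arrdc4 and Mlxip, beside 14.1% of all genes.

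Between the high fat diets, KD against HFD, edgeR called none of the 7 and 0 of all genes (0%), while 22.7% of genes had an unadjusted p below 0.05, Mlxipl and Mlxip among them. DESeq2 called none of the 7 either, beside 8.18% of all genes. Txnip was at -0.13 (SE 0.21, edgeR adjusted p 0.755), with an interval of -0.60 to 0.34. Arrdc4 was at -0.39 (SE 0.18, edgeR adjusted p 0.226) and Mlxipl at -0.43 (SE 0.16, edgeR adjusted p 0.159). On the other side were Mlx at 0.34 (SE 0.16), Pklr at 0.42 (SE 0.29), Txn1 at 0.53 (SE 0.24) and Mlxip at 0.63 (SE 0.21, edgeR adjusted p 0.137). Acinar markers differed most in this comparison, with 12 of the 15 higher in every KD library than in either HFD library. With the acinar score the Mlxip difference was 0.02 (SE 0.20, edgeR adjusted p 0.98), while Mlxip passed without KD replicate 4 (0.76, edgeR adjusted p 0.0228). Mlxip also passed with the replicate number, which is not known to pair the libraries, as a block (0.79, edgeR adjusted p 0.0195). The acinar score also moved Txnip to -0.47, Arrdc4 to -0.17, Mlxipl to -0.22, Mlx to 0.20, Txn1 to 0.14 and Pklr to 0.96. Without HFD replicate 1, Arrdc4 was at -0.19, Mlx at 0.18 and Pklr at 0.11, and without HFD replicate 2, Mlx was at 0.53 and Pklr at 0.83. The libraries did not overlap for 5 of the 7, namely Arrdc4 and Mlxipl lower and Mlx, Mlxip and Txn1 higher, beside 33.9% of all genes.

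An antisense gene overlaps Txnip, and it rose on KD. Gm15441 (ENSMUSG00000074398) is annotated in GENCODE M21 as antisense, shares 606 exonic bases with Txnip on the opposite strand and was taken up because of that overlap. In mouse liver it is known as a long noncoding RNA induced through PPARα by fasting. It measured 2.94, 2.64 and 0.938 CPM on LFD, 4.20 and 2.18 CPM on HFD, and 26.2, 13.5, 24.9 and 5.87 CPM on KD, from 20 to 337 counts per library. Every KD library was above every other library. On KD it was 8.08-fold the LFD level, a log2 fold change of 3.01 (SE 0.59) with an edgeR adjusted p of 0.0253. It did not pass for HFD against LFD (log2 fold change 0.56, SE 0.66, edgeR adjusted p 0.786) or for KD against HFD (2.46, SE 0.66, edgeR adjusted p 0.124), where DESeq2 did call it.

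Gm15441 followed the order of the acinar markers within LFD, HFD and KD. Within KD both were highest in replicate 1, then 3, then 2, then 4. In KD replicate 4, whose acinar markers summed to 146800 CPM and lay within the LFD range, Gm15441 stood at 5.87 CPM against at most 2.94 on LFD. HFD replicate 1, with acinar markers at 130300 CPM, also within that range, held 4.20 CPM of Gm15441. The part of acinar content in these values was not tested. With the acinar score as a covariate it stood 1.6 above LFD on the log2 scale (edgeR adjusted p 0.00251). The same covariate moved the HFD against LFD difference to 1.34 (edgeR adjusted p 0.102) and the KD against HFD difference to 0.26 (edgeR adjusted p 0.793). Without KD replicate 4 the KD against HFD difference passed at 2.76 (edgeR adjusted p 0.0186). The KD against LFD call was lost without LFD replicate 1 (edgeR adjusted p 0.0786), LFD replicate 2 (0.0822), KD replicate 2 (0.0552) or KD replicate 3 (0.0651), where the log2 fold changes were 3.27, 3.20, 3.12 and 2.80. It was also lost with no low-count filter (3.01, SE 0.70, edgeR adjusted p 0.0865) and with the lymphocyte score (4.18, SE 1.97, edgeR adjusted p 0.406). The libraries were made with a strand-specific kit, but whether strand was used in counting is not given in the sources used here. Reads in the shared exons of Txnip and Gm15441 may therefore not be separated.

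**Figure D4:**
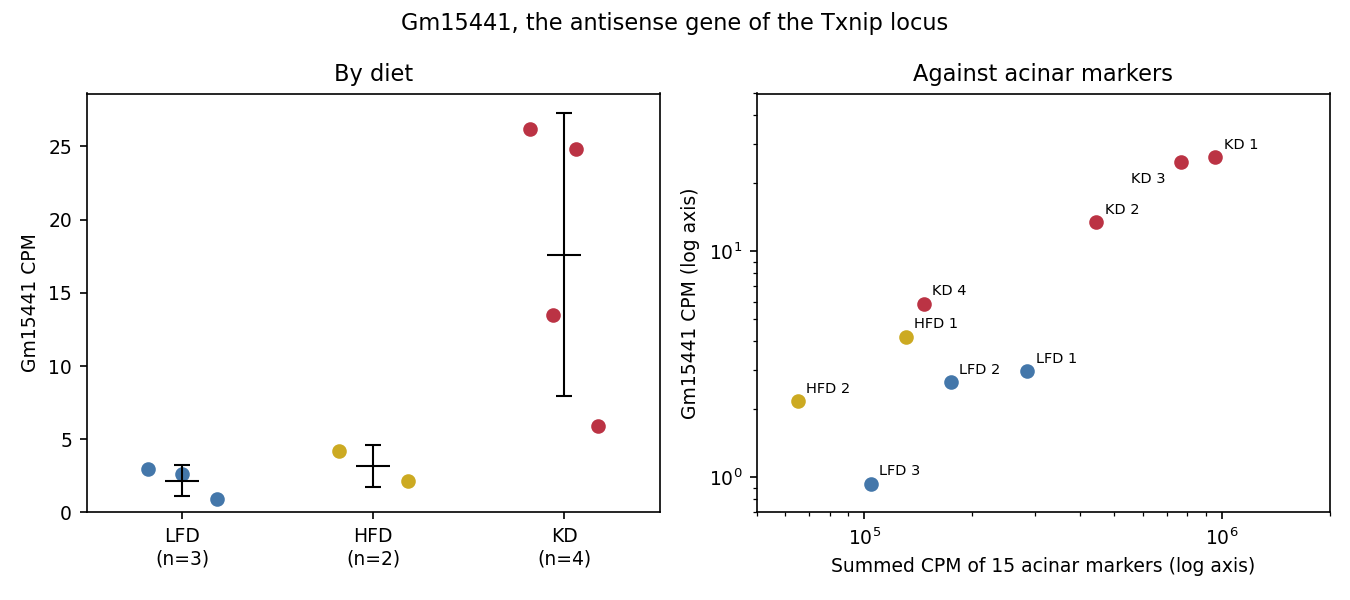
Left, CPM of Gm15441 by diet, with 1 point per library, the mean as a bar and the SD as whiskers. Right, Gm15441 CPM against the summed CPM of 15 acinar markers, both on log axes. KD replicates 1 to 3 are high on both axes. KD replicate 4 and HFD replicate 1 are both above the LFD libraries at acinar levels within the LFD range.

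Beyond the 7, 62 genes of the surrounding pathways were grouped in 5 lists, and 60 of them were tested. For KD against LFD 5 passed the edgeR test, 1 higher and 4 lower, or 8.33%, beside 4.12% of all genes. The lists, like the 7 genes, were chosen with earlier results of these data known. Nothing is therefore read from that share, and p-values of list genes are given as a description. None passed for HFD against LFD or KD against HFD, where 8 and 18 had an unadjusted p below 0.05, beside 9.99% and 22.7% of all genes. In KD against LFD 17 did, beside 22.7%. DESeq2 called 9 of the 60 for KD against LFD, 3 for HFD against LFD and 9 for KD against HFD, beside 9.56%, 1.44% and 8.18% of all genes.

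Of 22 further targets of the carbohydrate response, Bhlhe40 and Klf10 fell, Gpd1 rose and 19 did not pass for KD against LFD, with a median log2 fold change of -0.18. Bhlhe40, a transcriptional repressor linked to the circadian clock, measured 79.7, 63.2 and 50.5 CPM on LFD, 18.7 and 27.2 CPM on HFD, and 28.8, 29.7, 26.3 and 24.1 CPM on KD. All HFD and KD libraries lay well below all LFD libraries. Against LFD, Bhlhe40 was at a log2 fold change of -1.24 on KD (SE 0.18, edgeR adjusted p 0.00593) and -1.49 on HFD (SE 0.22, edgeR adjusted p 0.134). Leaving out any 1 library kept the KD call. With the lymphocyte score as a covariate, where 0 of all genes passed, the log2 fold change was -0.63 (edgeR adjusted p 0.586).

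Klf10, a Krüppel-like repressor, measured 40.5, 34.5 and 29.7 CPM on LFD, 20.7 and 29.2 CPM on HFD, and 21.4, 23.6, 19.6 and 22.99 CPM on KD. KD stood at -0.67 from LFD on the log2 scale (SE 0.16), with an edgeR adjusted p of 0.0382. That call was lost without LFD replicates 1 and 2 (edgeR adjusted p 0.173 and 0.0905), without KD replicates 1 to 3 (0.0785, 0.0817 and 0.112), with the acinar score (0.0588) and with the lymphocyte score (0.873). In those omissions the log2 fold change of Klf10 ran from -0.71 to -0.55, and it was -0.63 with the acinar score and -0.18 with the lymphocyte score. Gpd1, the cytosolic glycerol-3-phosphate dehydrogenase that links glycolysis to lipid synthesis, measured 15.9, 15.2 and 14.0 CPM on LFD, 12.4 and 14.2 CPM on HFD, and 23.2, 21.4, 24.0 and 21.3 CPM on KD. Gpd1 on KD stood 0.58 above LFD on the log2 scale (SE 0.13), with an edgeR adjusted p of 0.0358. The KD libraries of Gpd1 stood above all others, but the call was lost without LFD replicates 1 to 3 (edgeR adjusted p 0.112, 0.0909 and 0.0747) and without KD replicates 1 to 3 (0.0767, 0.0826 and 0.108). In those omissions the log2 fold change of Gpd1 ran from 0.53 to 0.62. The call was also lost with no low-count filter (0.58, edgeR adjusted p 0.0517), the stricter filter (0.52, 0.0507), the acinar score (0.50, 0.0684) and the lymphocyte score (0.73, SE 0.37, 0.424). The most abundant targets were Acly, an ATP citrate lyase of fatty acid synthesis, at 795 ± 142 CPM for LFD (SD, n = 3) against 1019 ± 257 for KD (SD, n = 4), and Slc2a2, the islet glucose transporter, at 373 ± 164 and 254 ± 58.2. Neither passed for KD against LFD (edgeR adjusted p 0.412 and 0.234). LFD replicate 3 held 561 CPM of Slc2a2 against 295 and 264 in the other LFD libraries, and the log2 fold change of -0.55 was -0.13 without it and -0.14 with the acinar score. With the acinar score Acly did pass (log2 fold change 0.81, edgeR adjusted p 0.00672).

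**Figure D5:**
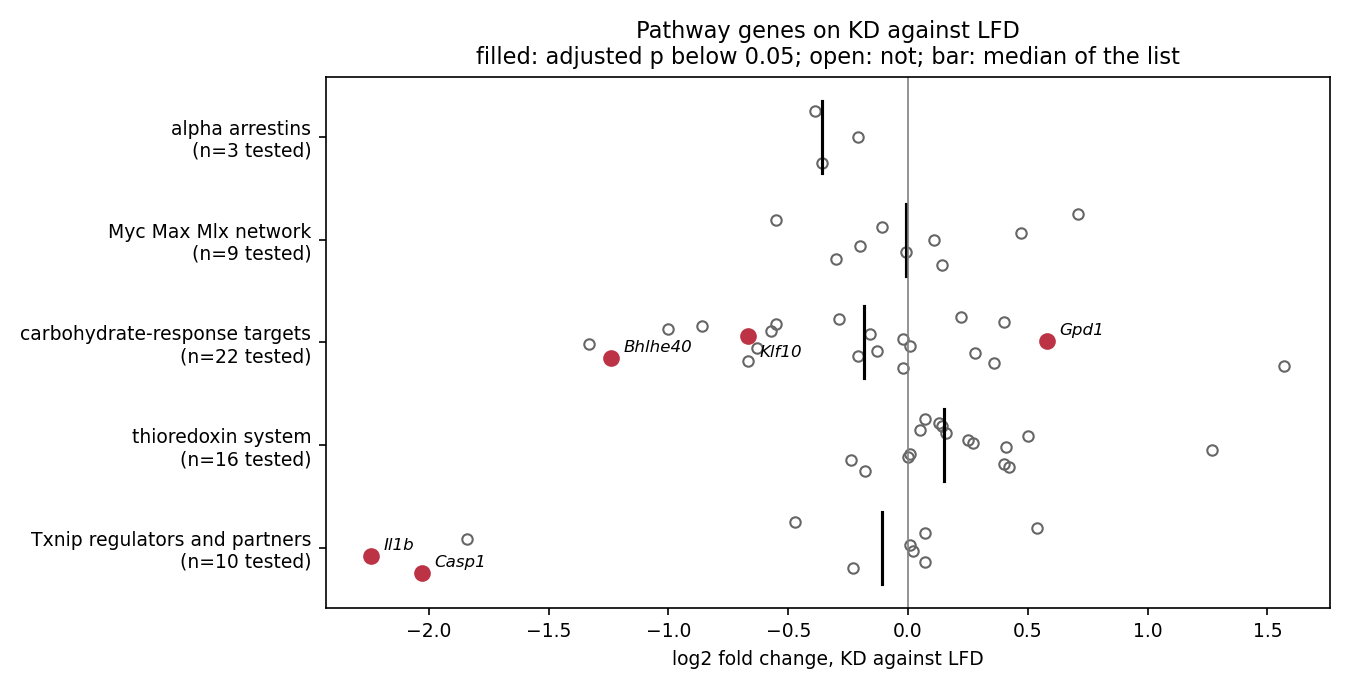
Log2 fold change of KD against LFD (x axis) for the 60 tested pathway genes in 5 lists, with filled points for genes past the edgeR threshold and a bar at the median of each list. The 5 filled genes are Il1b, Casp1, Bhlhe40 and Klf10 below 0 and Gpd1 above it.

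Among partners and regulators of Txnip, Il1b and Casp1 fell on KD and 8 of the 10 did not pass, with a median of -0.11. Both belong to the inflammasome route that Txnip is known to engage, Il1b as the cytokine and Casp1 as the protease that matures it. Il1b measured 8.34, 8.56 and 2.86 CPM on LFD, 4.40 and 7.96 CPM on HFD, and 1.4, 1.25, 0.713 and 2.06 CPM on KD. Casp1 measured 2.64, 3.36 and 1.36 CPM on LFD, 3.10 and 1.89 CPM on HFD, and 0.467, 0.936, 0.356 and 0.538 CPM on KD. For both genes the HFD libraries lay within the LFD range, and the KD libraries lay below all others. Both were low, with 8 to 191 counts per library for Il1b and 4 to 75 for Casp1. Casp1 was too low to be tested under the filter of 5 CPM. From LFD to KD, Il1b had a log2 fold change of -2.24 (SE 0.43, edgeR adjusted p 0.0220) and Casp1 of -2.03 (SE 0.44, edgeR adjusted p 0.0298). Nlrp3, the sensor of that route, named after its values were seen, was at -1.84 and did not pass (SE 0.80, edgeR adjusted p 0.201).

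Macrophages are a known source of Il1b and Casp1, and the 6 macrophage markers summed to 61.9 to 113 CPM on LFD, 77.3 to 105 on HFD and 32.1 to 61.9 on KD. All 6 had log2 fold changes below 0 for KD against LFD, 1 passed, and none was at 0 counts on any diet. Their part in these values was not tested. Il1b lost its call without LFD replicates 1 and 2 (edgeR adjusted p 0.0823 and 0.0704) and KD replicates 2 and 3 (0.0703 and 0.0632). Casp1 lost it without LFD replicates 1 and 2 (0.0994 and 0.0932) and KD replicates 1 and 3 (0.0660 and 0.0862). Neither passed in the fit with the lymphocyte score, nor did any other gene, and the log2 fold changes there were 0.48 for Il1b and -0.13 for Casp1. Itch, the ubiquitin ligase that marks Txnip for breakdown, was at 70.8 ± 6.25 CPM on LFD (SD, n = 3) and 72.0 ± 7.71 on KD (SD, n = 4). Prkaa1, a catalytic subunit of the AMP-activated kinase that phosphorylates Txnip, was at 61.3 ± 16.3 and 64.4 ± 15.7 CPM (edgeR adjusted p 0.935 for Itch and 0.870 for Prkaa1).

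The other alpha-arrestins, the Myc, Max and Mlx network and the thioredoxin system held no gene past the threshold in any of the 3 comparisons. For KD against LFD, 3 of the 4 further alpha-arrestins were tested, with a median of -0.36. Arrdc3 measured 35.9, 37.3 and 34.8 CPM on LFD, 41.5 and 37.0 CPM on HFD, and 25.7, 26.9, 26.8 and 30.5 CPM on KD. Its KD libraries lay below all others, with a log2 fold change for KD against LFD of -0.39 (SE 0.12, edgeR adjusted p 0.0812). Arrdc3 passed without KD replicate 4 (edgeR adjusted p 0.0481) and in DESeq2 (0.0386). Arrdc2 was at -0.21 (SE 0.41). Arrdc5 had 0 counts in every library.

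In the Myc, Max and Mlx network 9 of 10 genes were tested, and their median was -0.01 for KD against LFD. Mga, a large Max partner, was at 177 ± 28.7 CPM for LFD (SD, n = 3), then 188 ± 9.83 for HFD (SD, n = 2), then 144 ± 5.95 for KD (SD, n = 4), with an edgeR adjusted p of 0.211 for KD against LFD. Mxd4, a Max-dimerizing repressor, was at 124 ± 5.12, 107 ± 2.698 and 134 ± 14.3 CPM on the same diets. Of 16 thioredoxin system genes, 14 had log2 fold changes above 0 for KD against LFD, with a median of 0.15. Prdx4, the peroxiredoxin of the endoplasmic reticulum, measured 87.2, 55.6 and 33.7 CPM on LFD, 50.4 and 19.9 CPM on HFD, and 234, 119, 167 and 50.1 CPM on KD. Its order followed the acinar markers within LFD, HFD and KD, and from LFD to KD it differed by 1.27 on the log2 scale (SE 0.56, edgeR adjusted p 0.219), or by -0.09 with the acinar score. With the replicate number as a block it passed (log2 fold change 1.6, edgeR adjusted p 0.00289). Prdx6 was at 86.9 ± 2.55 CPM on LFD (SD, n = 3) and 105 ± 11.4 on KD (SD, n = 4), with an edgeR adjusted p of 0.223, and it passed with the acinar score (0.0455).

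The genes whose levels most resembled Txnip were sought by Pearson r of log2 CPM over the 9 libraries, among 10426 other genes with a mean of at least 5 CPM, as a description over libraries that share diet and cell content. They were Spp1 (0.966), Rbms3 (0.966), Evc (0.962), Klf6 (0.961) and Pld1 (0.961), and r stayed between 0.939 and 0.986 for these whichever library was left out. Spp1, a secreted phosphoprotein used here as a duct marker, measured 219.9, 203.6 and 189.1 CPM on LFD, 113 and 82.8 CPM on HFD, and 124, 84.9, 86.6 and 70.2 CPM on KD. Klf6, an early-response transcription factor, measured 110.2, 115 and 77.2 CPM on LFD, 52.8 and 39.4 CPM on HFD, and 54.2, 40.1, 27.2 and 30.4 CPM on KD. Within HFD and KD both were high where Txnip was high, in HFD replicate 1 and KD replicate 1. By the same measure Arrdc4 ranked 570 for Txnip with r of 0.713, Mlxipl 1827 with 0.395, and Mlx had r of -0.589.

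Nearest to Arrdc4 were Rad52 (0.971), Dnajb4 (0.969), Casp2 (0.962), Frmd4a (0.960) and Rbm4b (0.957), each with a log2 fold change of KD against LFD from -0.76 to -0.57. Rad52, a homologous recombination protein, measured 12.4, 13.4 and 12.9 CPM on LFD, 11.6 and 9.55 CPM on HFD, and 7.39, 8.82, 8.02 and 9.50 CPM on KD. The lists for Txnip and Arrdc4 had no gene in common. Mlx stood opposite to Arrdc4, with r of -0.911, and Mlxipl was on its side with r of 0.744.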

How the data were processed

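RNA from 9 islet libraries was analysed. The authors deposited raw counts per Ensembl gene, with 1 column per library matched through the identifier in the sample title. Per the submitters' processing notes, cutadapt 1.16, STAR 2.7.9a, featureCounts 1.6.3, DESeq2 1.40.2 and the build GRCm39 (mm39) were named, without settings. The kit, per the labels' protocols, selected polyadenylated RNA and kept strand. Symbols from the GENCODE M21 table matched 51948 of 56941 identifiers. Sequences were RefSeq's for GRCm38.p6, and transcript lengths came from GENCODE M21.

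edgeR 4.0.16 in R 4.3.3 kept 18548 genes by filterByExpr, holding at least 99.86% of each library's counts, and scaled libraries by TMM. A robust quasi-likelihood fit with 3 diet means used all 9 libraries, with two-sided tests adjusted by Benjamini-Hochberg at 0.05. Standard errors are the log2 fold change divided by the root of its F statistic. Log2 CPM used a prior count of 2. The procedure was tested on simulated data.

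The genes followed and all lists were chosen with earlier results of these data known. Named were the 7 genes, pathway genes past the threshold, the 2 most abundant per list, and the 5 nearest to Txnip and to Arrdc4. Gm15441 and a few genes beside the rule (Nlrp3, Arrdc5, Hcn3) were added. Alternatives were the DESeq2 1.42.0 Wald test, DESeq2 size factors, TMM without marker genes, no filter or at least 5 CPM in 3 libraries, only the groups compared, acinar or lymphocyte scores, a replicate block and omission of each library. No source used here gives a preparation date or batch, and a batch effect and a diet effect cannot be told apart. Depth limits the precision of low genes by counting error alone. Counts per library were about 20 to 475 in Gm15441, Arrdc4 and Pklr. They were lower still in Il1b (8 to 191), Casp1 (4 to 75) and Nlrp3 (2 to 44).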

Additional observations from a re-analysis of the deposited data

Results flagged for a closer look

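Itch stood at 60.5 CPM in KD replicate 4, apart from the other 3 KD libraries by more than Dixon's 95% critical value allows for 4 samples. Chance gives such a flag in about 1 in 20 groups, and 23 genes were looked at.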

How the results depend on the processing

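The counts of genes past the threshold moved most. For KD against LFD over all genes the count was 764, and it was 1773 in DESeq2, 383 with the filter of 5 CPM, 1383 with the acinar score, 0 with the lymphocyte score and 2003 with the replicate number as a block. Over single omissions it ran from 151 to 1348. For HFD against LFD the count of 0 became 268 in DESeq2, 81 with no filter and 395 with the block, and 0 to 194 over omissions. For KD against HFD it became 1518 in DESeq2, 316 with no filter, 2 with the acinar score, 58 with the lymphocyte score and 2320 with the block, and 0 to 1793 over omissions. Of the 7 genes, 2 passed for KD against LFD, 1 with the acinar score and 0 with the lymphocyte score, and 0 to 2 over omissions. For HFD against LFD 1 passed in DESeq2, with 0 in every omission. For KD against HFD 1 passed with the block and 0 to 1 over omissions. Pathway genes past the threshold for KD against LFD were 5, with 9 in DESeq2, 3 under the filter of 5 CPM, 0 with the lymphocyte score, 10 with the block and 1 to 9 over omissions. For HFD against LFD they were 3 in DESeq2, 1 with no filter, 2 with the block and 0 to 1 over omissions. For KD against HFD they were 9 in DESeq2, 5 with no filter, 13 with the block and 0 to 12 over omissions. Fewer genes were tested under the filter of 5 CPM, and the lymphocyte score did not overlap between LFD and the other diets. The cause of the other moves was not tested.

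The direction of Txnip, Arrdc4, Mlxipl and Mlx for KD against LFD was the same in all 18 alternatives, with log2 fold changes from -1.09 to -0.77, -1.12 to -0.58, -0.79 to -0.30 and 0.31 to 0.50. Values that changed sign were small or came from covariate fits. For KD against LFD these were Mlxip with the acinar score (-0.28) and without KD replicate 1 (-0.04, with omissions from -0.04 to 0.24), Pklr with the lymphocyte score (-0.63), Il1b with the lymphocyte score (0.48), and Arrdc2 with the lymphocyte score (1.4) and without KD replicate 4 (0.00, with omissions from -0.72 to 0.00). Prdx4 changed with the acinar score (-0.09). Itch changed with the filter of 5 CPM (-0.03), the acinar score (-0.15), the lymphocyte score (-0.24), and without LFD replicate 2 (-0.04) or KD replicates 2 and 3 (-0.00 each). Prkaa1 changed with the lymphocyte score (-0.68), the block (-0.05), and without LFD replicates 1 and 2 or KD replicate 4 (-0.04, -0.03 and -0.07). For HFD against LFD these were Mlxipl with the block (0.07) and without LFD replicate 3 (0.13) or HFD replicate 1 (0.10), with omissions from -0.17 to 0.13, and Mlx without LFD replicate 2 (-0.00) or HFD replicate 2 (-0.13), with omissions from -0.13 to 0.22. Pklr changed without LFD replicate 3 (0.16) or HFD replicate 1 (0.15), with omissions from -0.56 to 0.16, and Txn1 with the lymphocyte score (0.71). For KD against HFD Txnip was 0.03 with the block and 0.11 without HFD replicate 1, with omissions from -0.33 to 0.11. The cause of these changes was not tested.

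Whether replicate numbers pair the libraries is not known. The deviations of same-numbered libraries from their diet means correlated from -0.016 to 0.222, and 2 of 6 LFD and KD libraries matched their own number best. With so few libraries per diet, this check cannot exclude a pairing. Counts with the block are therefore given only here and where a gene above is named with it.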
